A study of Mus musculus with 15 samples.

Results

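Transcripts of 10 genes of the TGF-beta, BMP and activin pathways were followed in RPE/choroid complex of mouse eyes, the retinal pigment epithelium (RPE) with the vascular layer beneath it. They were taken by symbol from a table of 40481 genes. Of these, 3 encode TGF-beta ligands (Tgfb1, Tgfb2, Tgfb3) and 3 encode bone morphogenetic proteins (Bmp2, Bmp4, Bmp7). Inhba and Inhbb encode the subunits of activins, and Smad6 and Smad7 encode the inhibitory Smads. All 10 were among the 17991 genes that passed the filter on low counts.

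There were 7 control libraries and 8 INK-ATTAC libraries. Every library, control or not, came from mice with floxed Abca1 and Abcg1 and the LysM-Cre transgene, which recombines in myeloid cells, and every library was labelled with intraperitoneal AP20187. The INK-ATTAC libraries also carried a transgene in which the p16Ink4a promoter drives a fusion of FKBP and caspase 8. AP20187 dimerizes that fusion and kills the cells that make it, and the INK-ATTAC mice were described as dosed on alternate days for 3 months. Controls lacked the transgene by their labels, so the labelled drug and the floxed genotype were shared. The dosing schedule is described for the INK-ATTAC mice and not for the controls, so the transgene and any difference in dosing cannot be told apart. Age and sex were not stated, and nothing in the labels ties each library to its own animal, so a p-value here reflects only how these samples vary.

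TGF-beta, BMP and activin ligands are secreted dimers that bring together type I and type II receptor kinases. The receptors phosphorylate Smad proteins, which join Smad4 and act on genes in the nucleus, and the same genes include Smad6 and Smad7, which then dampen the receptors. BMP signalling takes part in specifying the RPE during eye development, TGF-beta signalling drives matrix production and the contractile program of smooth muscle, and TGF-beta and activin A are among the factors that senescent cells can secrete.

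Totals ran from 39121503 to 65065950 counts per library, with a median of 50117272. The tissue label was met by the RPE markers, whose mean level (the mean log2 CPM, counts scaled to the library total, of 10 genes such as Rpe65 and Best1) was 10.47 to 10.92 in the 15 libraries, and by melanocyte markers at 9.07 to 9.42. Markers of neighbouring tissue were also present. Skeletal muscle markers lay between 4.12 and 7.05 in controls and between 5.24 and 7.69 in INK-ATTAC libraries. Fitted log2 fold changes were above 0 for 10 of 10 skeletal muscle markers (median 0.89) and 9 of 9 lens markers (3.02), and below 0 for 10 of 10 rod markers (-0.25) and 7 of 7 erythrocyte markers (-0.46), though no gene passed the test. INK-ATTAC 2 stood apart, with a rod photoreceptor level of 1.79 against 3.69 to 6.01 in the other libraries and the highest RPE level, so results that rest on it are given with and without it. As sex was not stated, libraries were classed by the level of Xist, though the labels cannot show whether the classes match sex. Xist was high in 4 control and 4 INK-ATTAC libraries and low in the others. The low libraries were control 1 to control 3 and INK-ATTAC 1 to INK-ATTAC 4, so the class follows the library number. In every result by Xist class below, class and library number cannot be told apart. In bulk tissue, fewer cells of a type and less RNA per cell cannot be told apart.

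None of the 10 genes differed between INK-ATTAC and control libraries by edgeR's quasi-likelihood test adjusted over all genes. The background was the same, since 0% of the genes tested were called. At an unadjusted p under 0.05 there were again 0 of the 10, beside 4.14% of all genes (2.2% higher and 1.94% lower in INK-ATTAC libraries). DESeq2, limma-voom and limma-voom with quality weights also called 0 of the 10, beside 0.0334%, 0% and 0.0111% of all genes. Their unadjusted p fell under 0.05 for 0 of the 10 and for 4.21%, 4.34% and 5.94% of all genes. The fitted log2 fold change, INK-ATTAC against control, was above 0 for 7 genes and below 0 for 3, with a median of 0.07. Over all genes, 49.8% were above 0. Control and INK-ATTAC ranges overlapped for each of the 10, and they were separate for 0.0222% of all genes. The adjusted p was 1.00 for every one of the 10.

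**Figure D1:**
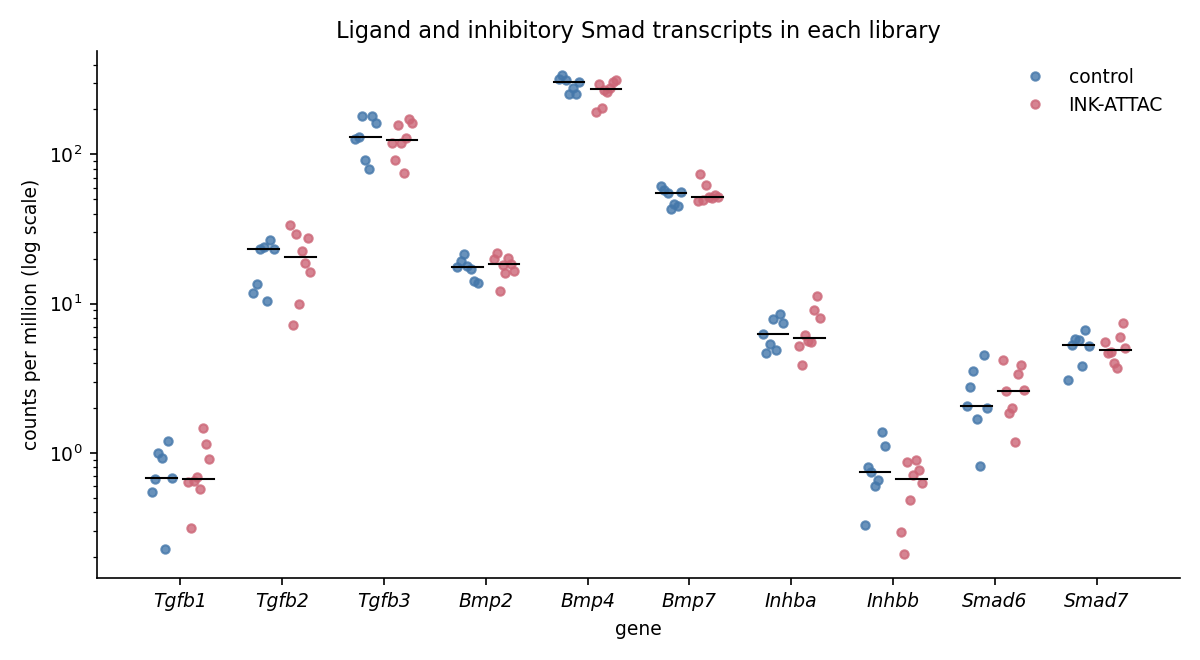
CPM on a log axis for each of the 10 genes, with 1 point per library (control blue, INK-ATTAC red) and a black line at the group median. Bmp4 sits highest and Tgfb1 and Inhbb lowest, and the points of the groups overlap for every gene.

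Among the TGF-beta ligands, Tgfb3 carried most of the transcript. Divided by exon length, so that genes can be compared, its level was 39.0 ± 10.7 CPM per kb (SD, n = 15), against 3.43 ± 1.37 for Tgfb2 and 0.15 ± 0.07 for Tgfb1. Tgfb3 was 84.7% to 95.4% of the summed level of the 3 ligands in every library, and Tgfb1 was at most 0.702%.

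Tgfb3, on chromosome 12 (86056745 to 86079041, GRCm38, minus strand), encodes a ligand best known for its part in palate fusion. Its lowest, median and highest values were 79.4, 131 and 181 CPM in controls. In INK-ATTAC libraries they were 74.8, 124 and 174 CPM. The ranges lay almost on top of each other, and control 5 and INK-ATTAC 5 were lowest in their groups. This gave a log2 fold change of -0.08 (SE 0.20), with a 95% interval from 0.710 to 1.25 as a ratio. In the annotation 420 of its exon bases are shared with genes on the opposite strand, Ttll5 among the genes that overlap it, and the counts were not stated to use strand. The same holds for 124 exon bases of Tgfb2 and 89 of Bmp4.

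Tgfb2 encodes the ligand that is abundant in the fluids of the eye. It lies on chromosome 1 (186622792 to 186705989, minus strand). The 250 bases before its start are shown because this gene tracked the RPE level in the opposite direction to Bmp7. Capitals mark matches to the Smad binding element CAGACA and to the TATA box TATAAA, searched on both strands.
Tgfb2 promoter: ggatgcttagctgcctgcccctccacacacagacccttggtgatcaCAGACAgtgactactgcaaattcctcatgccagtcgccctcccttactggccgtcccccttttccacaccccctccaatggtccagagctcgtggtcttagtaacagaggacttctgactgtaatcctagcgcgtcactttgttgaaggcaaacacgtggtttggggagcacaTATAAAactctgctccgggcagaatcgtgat
The window is chr1:186705990-186706239 (RefSeq, GRCm38.p6, minus strand). CAGACA begins 204 bases and TATAAA 31 bases before the start, and 17% and 12.3% of the 32536 promoter windows of that length hold these letters.

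Tgfb2 was the most variable of the well-measured ligands. Controls ran from 10.5 through a median of 23.2 to 26.7 CPM, and INK-ATTAC libraries from 7.24 through 20.6 to 33.5 CPM. INK-ATTAC 2 was lowest and INK-ATTAC 1 highest, so the INK-ATTAC range enclosed that of the controls, and only 3 of its 8 libraries lay inside the control range. Tgfb2 had a log2 fold change of 0.12 (SE 0.29), and the interval as a ratio was 0.706 to 1.66. It was 0.23 without INK-ATTAC 2 and -0.02 without INK-ATTAC 1, so the direction rested on single libraries.

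Tgfb1, the ligand of immune and wound responses, lies on chromosome 7 (25687002 to 25705077, plus strand). Its promoter is shown beside that of Inhba because r of the pair was 0.765 over 15 libraries. The pair did not meet the rule set for pairs of the genes, as described below. The Tgfb1 promoter holds none of the 4 motifs searched, so no letters are in capitals.
Tgfb1 promoter: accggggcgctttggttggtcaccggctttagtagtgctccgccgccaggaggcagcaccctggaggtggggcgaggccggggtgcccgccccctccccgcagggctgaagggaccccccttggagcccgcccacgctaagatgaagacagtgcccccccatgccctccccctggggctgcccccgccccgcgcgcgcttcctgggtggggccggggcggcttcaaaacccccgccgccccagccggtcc
Inhba promoter: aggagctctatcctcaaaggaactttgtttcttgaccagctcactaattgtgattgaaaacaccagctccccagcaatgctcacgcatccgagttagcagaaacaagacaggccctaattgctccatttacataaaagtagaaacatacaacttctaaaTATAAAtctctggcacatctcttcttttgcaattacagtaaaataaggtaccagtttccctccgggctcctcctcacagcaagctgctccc
These windows are chr7:25686752-25687001 and chr13:16011601-16011850 (RefSeq, GRCm38.p6, both plus strand), with 75.2% and 43.2% G or C. In the Inhba window capitals mark TATAAA, 91 bases before the start. The other motifs searched were the palindromic Smad binding element GTCTAGAC, present in 0.169% of windows, and the GC-rich Smad binding element GGCGCC, present in 9.65%. RefSeq promoters were found for 6 of the 10 genes, and those of Bmp4, Inhbb and Smad6 held no match either.

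Tgfb1 was close to the limit of counting. It drew 10 to 65 counts in controls and 15 to 96 in INK-ATTAC libraries. Controls spanned 0.228, 0.683 and 1.20 CPM (lowest, median, highest) and INK-ATTAC libraries 0.316, 0.669 and 1.47 CPM. Control 5 was the lowest of all and INK-ATTAC 6 the highest, and 7 of the 8 INK-ATTAC libraries lay inside the control range. Its log2 fold change was 0.10 (SE 0.33), and it was -0.09 without INK-ATTAC 6. Its interval as a ratio, 0.658 to 1.74, was the widest of the TGF-beta ligands.

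The BMP ligands were measured most precisely and varied least. Over all 15 libraries the coefficient of variation was 14.9% for Bmp4, 14.4% for Bmp7 and 16.0% for Bmp2, against 27.5% to 43.9% for the other ligands and subunits. Bmp4 had the highest level of the 10 genes, 124 ± 18.6 CPM per kb, followed by Bmp7 at 13.4 ± 1.93 and Bmp2 at 4.97 ± 0.79 (SD, n = 15 each). The order Bmp4, Tgfb3, Bmp7, Bmp2 held in each of the 15 libraries with no overlap of ranges between neighbours. Bmp4 was 82.9% to 88.9% of the summed level of the 3 BMPs.

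Bmp4, a ligand with roles in patterning the eye, lies on chromosome 14 (46383520 to 46390669, minus strand). Controls gave 252 CPM at the lowest, 306 at the median and 342 at the highest, and INK-ATTAC libraries 193, 274 and 317 CPM. INK-ATTAC 1 and INK-ATTAC 3 lay below every control, and 7 of the 8 INK-ATTAC libraries were at or below the control median. Bmp4 had a log2 fold change of -0.15 (SE 0.11), with the lowest unadjusted p of the 10 genes and an interval of 0.771 to 1.05 as a ratio. In the authors' deposited table, which lists 8 of the 10 genes (not Tgfb1 or Inhbb), Bmp4 has a log2 fold change of -0.23, a p of 0.0530 and an adjusted p of 0.770. None of those 8 is called in the authors' deposited table, where 0.0208% of genes are.

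Bmp4 was also read within the classes of low and high Xist, which also divide the libraries by number. In the low class, controls were at 315 to 342 CPM (325 ± 14.7, SD, n = 3). INK-ATTAC libraries of that class were at 193 to 295 CPM (241 ± 49.3, n = 4), with no overlap. The share of all genes whose ranges separate within a class was not counted, so this separation has no background beside it. In the high class, controls were at 252 to 306 CPM (273 ± 25.1, n = 4) and INK-ATTAC libraries at 262 to 317 CPM (290.4 ± 25.2, n = 4). The interaction of group and Xist class was 0.52 on the log2 scale (edgeR adjusted p = 0.876). It did not pass, and 0% of genes passed that test. Its unadjusted p was under 0.05, as for 4.77% of all genes. Of the other 9 genes none had an unadjusted interaction p under 0.05.

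**Figure D2:**
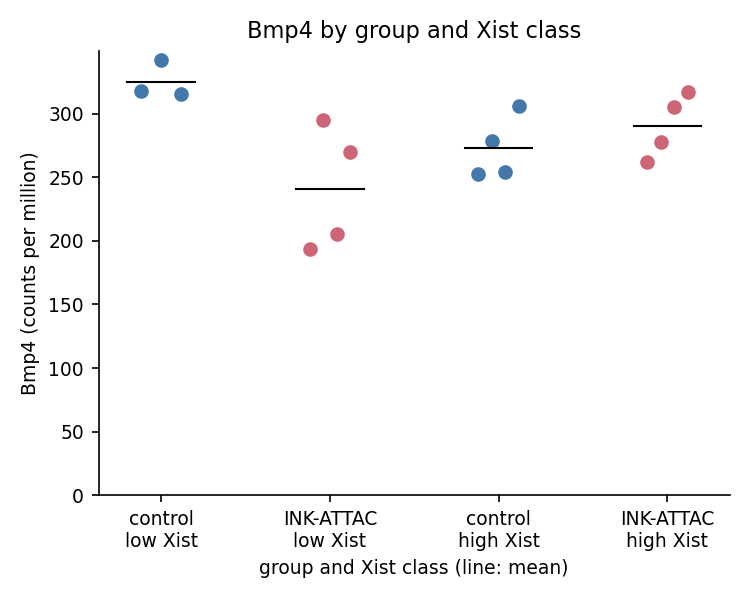
Bmp4 in CPM by group and class of Xist level, with 1 point per library and a line at the mean. In the low Xist class the 4 INK-ATTAC points (193 to 295) lie below the 3 control points (315 to 342), and in the high Xist class the groups overlap. The share of all genes that separate within a class was not counted.

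Bmp7, a ligand needed for early eye development, lies on chromosome 2 (172868012 to 172940321, minus strand). Controls ran from 42.9 through 55.4 to 61.0 CPM and INK-ATTAC libraries from 48.7 through 52.0 to 73.6 CPM. INK-ATTAC 2 was the highest library, and 6 of the 8 INK-ATTAC libraries lay inside the control range. The log2 fold change of 0.09 (SE 0.10) became 0.01 without INK-ATTAC 2. As a ratio the interval was 0.921 to 1.23.

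Bmp2, a ligand of bone and vessel wall, lies on the same chromosome (133552159 to 133562885, plus strand). It ran from 13.7 through 17.6 to 21.5 CPM in controls and from 12.1 through 18.3 to 22.0 CPM in INK-ATTAC libraries. Again INK-ATTAC 2 was highest, INK-ATTAC 3 was lowest, and the groups overlapped in nearly their full ranges. The log2 fold change of 0.05 (SE 0.12) was -0.01 without INK-ATTAC 2, and its interval as a ratio was 0.870 to 1.24.

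Of the activin subunits, Inhba, which forms activin A, made up 79.3% to 92.7% of the summed level of the pair. It lies on chromosome 13 (16011851 to 16031621, plus strand). In controls its lowest, median and highest values were 4.65, 6.22 and 8.48 CPM, and in INK-ATTAC libraries 3.89, 5.92 and 11.3 CPM. INK-ATTAC 2 was lowest and INK-ATTAC 7 highest, and 3 of the 8 INK-ATTAC libraries exceeded the control median. For Inhba the log2 fold change was 0.10 (SE 0.21), with an interval of 0.794 to 1.45 as a ratio, and it was -0.04 without INK-ATTAC 7.

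Inhbb, the subunit of activin B, had the largest fitted difference of the 10 genes and one of the widest intervals. It lies on chromosome 1 (119415465 to 119422248, minus strand) and drew only 10 to 75 counts per library. Controls ran from 0.326 through 0.747 to 1.38 CPM and INK-ATTAC libraries from 0.210 through 0.671 to 0.890 CPM. INK-ATTAC 1 and INK-ATTAC 2 lay below every control, and control 6 and control 7 lay above every INK-ATTAC library. Inhbb had a log2 fold change of -0.41 (SE 0.33), and the interval as a ratio ran from 0.467 to 1.22. With the skeletal muscle level as a covariate the log2 fold change was 0.15. The part of skeletal muscle in the Inhbb difference was not tested further.

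Neither inhibitory Smad passed the test. Smad6, which acts mainly on BMP receptors, lies on chromosome 9 (63953076 to 64022059, minus strand). It ran from 0.820 through 2.06 to 4.53 CPM in controls and from 1.19 through 2.61 to 4.22 CPM in INK-ATTAC libraries. All 8 INK-ATTAC libraries lay inside the control range, whose ends were control 5 and control 6. The log2 fold change was 0.12 (SE 0.31), with an interval of 0.691 to 1.72 as a ratio, and it was -0.03 without control 5.

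Smad7, which blocks TGF-beta receptors as well, was tighter. Controls ran from 3.08 through 5.25 to 6.67 CPM and INK-ATTAC libraries from 3.68 through 4.89 to 7.45 CPM. INK-ATTAC 7 was the only library above the control range. The log2 fold change was 0.02 (SE 0.17), the interval as a ratio was 0.789 to 1.31, and leaving out control 1 gave -0.08. Per kb, Smad7 (1.13 ± 0.26 CPM per kb), Inhba (1.04 ± 0.31) and Smad6 (0.81 ± 0.34; SD, n = 15 each) could not be ordered. Smad7 exceeded Inhba in 9 of 15 libraries and Inhba exceeded Smad6 in 10. At the bottom, Inhbb (0.16 ± 0.07 CPM per kb) exceeded Tgfb1 in only 6 libraries.

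**Figure D3:**
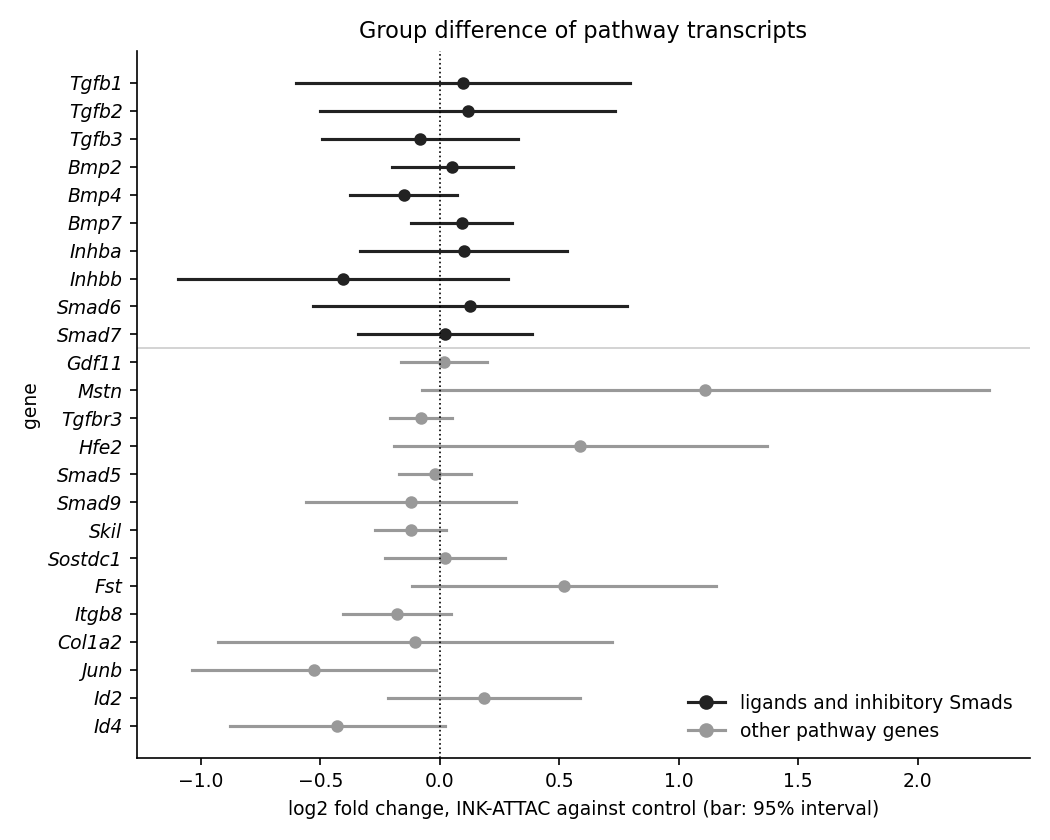
Log2 fold change of INK-ATTAC against control with its 95% interval, for the 10 ligand and inhibitory Smad genes (black, above the line) and 14 other pathway genes (grey). Of the black intervals each includes 0, those of Bmp4, Bmp7 and Bmp2 are the narrowest, and Junb is the one grey gene whose interval excludes 0.

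The rest of the pathway was read from 8 lists holding 109 genes, of which 90 were tested. By edgeR with adjustment over all genes, 0 were called, against 0% of all genes, and 1 had an unadjusted p under 0.05, beside 4.14% of all genes. That second number was 3 by DESeq2, 3 by limma-voom and 5 with quality weights. It was 0 without control 2, control 4, control 7, INK-ATTAC 4 or INK-ATTAC 6, 4 without control 5 and 5 without INK-ATTAC 7. Log2 fold changes were above 0 for 37 and below 0 for 53, with a median of -0.02. Of each list, the gene with the highest mean CPM and the gene with the lowest p are described.

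Among the other ligands (11 tested, 8 above 0), Gdf11, a close relative of myostatin, had a median of 63.1 CPM in the controls and of 64.2 CPM with INK-ATTAC. Mstn, the muscle growth inhibitor myostatin, had medians of 0.822 and 1.38 CPM, a log2 fold change of 1.11 (SE 0.56), which was -0.02 with the skeletal muscle level as a covariate. Among the receptors (16 tested, 5 above 0), Tgfbr3, the co-receptor betaglycan, had medians of 55.1 and 52.4 CPM. Hfe2, a BMP co-receptor of muscle and liver, had a log2 fold change of 0.59 (SE 0.37), which was -0.28 with that covariate.

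The Smads that carry the signal gave the narrowest spread of fold changes, from -0.12 to 0.03 over 6 genes. Smad5, which transmits BMP signals, had medians of 33.8 CPM in both groups, and Smad9, of the same branch, had a log2 fold change of -0.12 (SE 0.21). Of 11 intracellular brakes 8 were below 0, and Skil, a corepressor of Smads, was both the highest in CPM and the lowest in p (-0.12, SE 0.07). Sostdc1, an extracellular BMP antagonist, had medians of 239 and 245 CPM. Fst, follistatin, which traps activins, had a log2 fold change of 0.52 (SE 0.30), with 6 of 8 INK-ATTAC libraries above the control median. Itgb8, an integrin subunit that releases latent TGF-beta, had medians of 393 and 383 CPM (log2 fold change -0.18, SE 0.11).

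Targets downstream of the ligands did not pass either. Of 16 TGF-beta targets, 4 were above 0 and 12 below, with a median of -0.08. Col1a2, a fibrillar collagen gene, ranged from 144 to 859 CPM in controls and from 163 to 721 CPM with INK-ATTAC, at a log2 fold change of -0.10 (SE 0.39). Junb, an AP-1 subunit, had medians of 6.61 and 4.88 CPM, with 7 of 8 INK-ATTAC libraries at or below the control median, and a log2 fold change of -0.53 (SE 0.24, edgeR adjusted p = 1.00); it was the 1 gene of the lists with an unadjusted p under 0.05 in that fit. Of 11 BMP targets, 8 were above 0 and 3 below, with a median of 0.14. Id2 and Id4, helix-loop-helix inhibitors switched on by BMPs, had log2 fold changes of 0.18 (SE 0.19) and -0.43 (SE 0.21).

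Across libraries, several of the 10 genes moved with the level of cell type markers. Each gene was correlated with 12 marker levels over 15 libraries, 120 correlations in all, with permutation p-values adjusted over all genes tested against the same marker level. Of these 13 passed, 12 of them positive. Passing refers to Pearson's r. A p given with Spearman's rho, here and below, is a permutation p without adjustment. With markers that are also TGF-beta or BMP targets left out, which were in the fibroblast and pericyte lists alone, 12 passed. With each group centred on its mean 14 passed. Without INK-ATTAC 2 the number was 7, of which 6 were among the 13. Over all genes, the share that passed was 0.412% for rod, 0.272% for Muller glia, 0.99% for skeletal muscle, 0.0222% for lens and 0.0612% for Schwann cell markers, and none of the 10 was among them. Passing depends on how many genes follow a level, so some r that failed exceeded in size some that passed. Those that failed included Inhbb with RPE (r = -0.779) and skeletal muscle (-0.742), and Tgfb2 with Schwann cell (0.754) and Muller glia markers (0.722). Inhbb with pericyte markers passed at 0.647. The Muller glia list shares Rlbp1 with the RPE list, so its level is not a measure of Muller glia alone.

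Bmp7 and Tgfb2 had opposite signs against the RPE level. Bmp7 correlated positively (Pearson's r = 0.799, permutation p = 0.00043, adjusted p = 0.0477; Spearman's rho = 0.607, p = 0.0189). Tgfb2 correlated negatively (r = -0.835, permutation p = 7e-05, adjusted p = 0.0417; rho = -0.818, p = 0.00038). Adjusted over the 120 correlations, the permutation p of rho was 0.0228 for Tgfb2 and 0.108 for Bmp7. Against the same level 1.37% of all genes passed, and of the 17981 genes compared 99.2% and 99.7% had a smaller absolute r. Bmp7 lay at the threshold. In a second draw of 100000 permutations, against the same RPE markers, its adjusted p was 0.0503 and no longer passed, that of Tgfb2 was 0.0391, and 0.701% of all genes passed.

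INK-ATTAC 2, with the highest RPE level, also had the highest Bmp7 and the lowest Tgfb2. Without it r was 0.684 for Bmp7 (adjusted p = 0.294) and -0.758 for Tgfb2 (adjusted p = 0.263), and 0% of all genes passed. Without both INK-ATTAC 2 and control 6, the libraries farthest from the median RPE level, r was 0.611 and -0.772. Within groups r was 0.716 in controls and 0.885 in INK-ATTAC libraries for Bmp7, and -0.776 and -0.897 for Tgfb2. Within Xist classes Tgfb2 kept its sign (-0.919 in low, -0.680 in high), whereas Bmp7 gave 0.904 in low and 0.235 in high, so its relation did not hold in the high class. What else set INK-ATTAC 2 apart, its low rod level included, was not tested for a part in these relations.

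**Figure D4:**
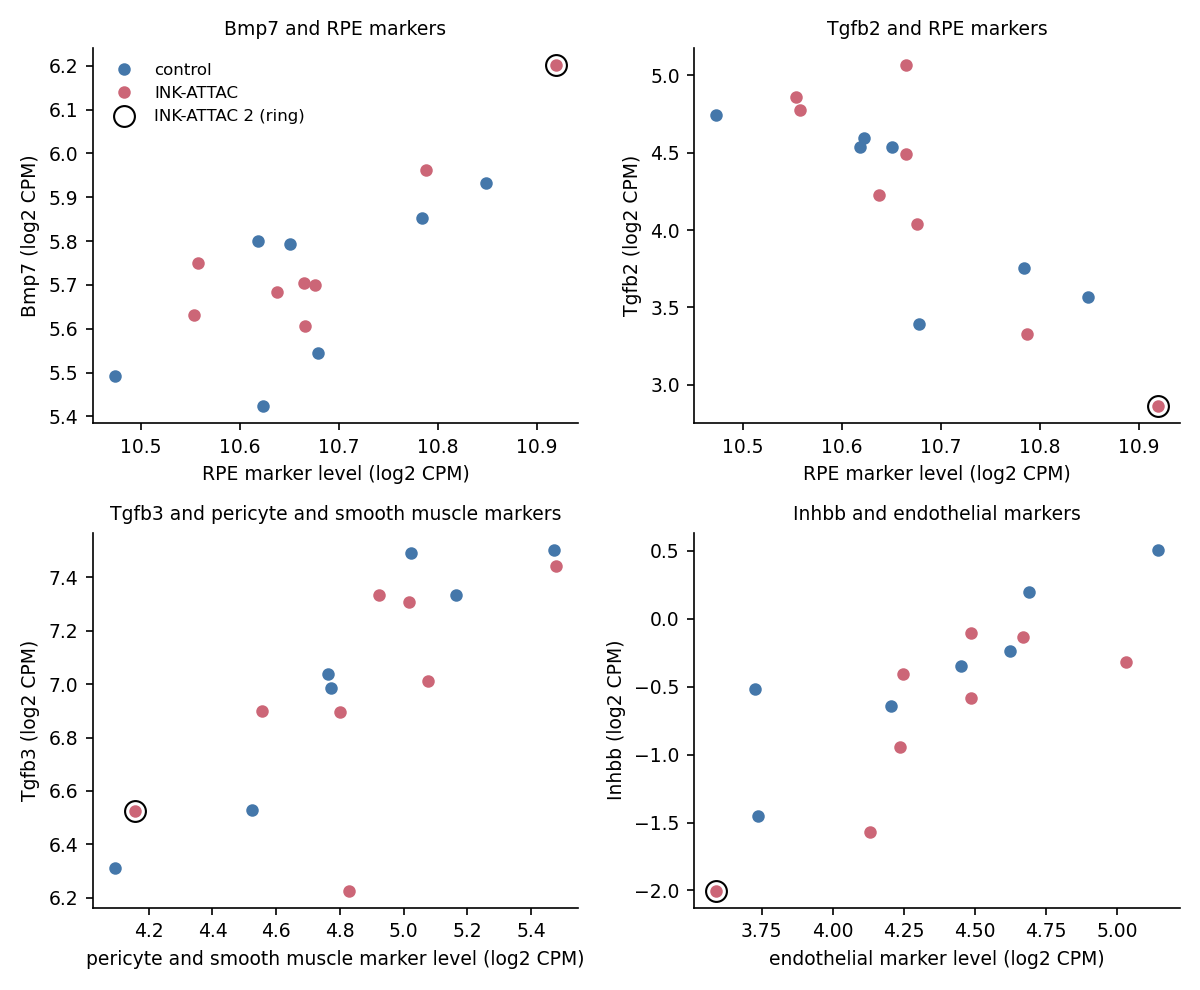
Log2 CPM of Bmp7, Tgfb2, Tgfb3 and Inhbb (vertical axes) against a marker level (mean log2 CPM, horizontal axes), with 1 point per library (control blue, INK-ATTAC red) and a ring around INK-ATTAC 2. Bmp7 points run upward and Tgfb2 points downward along the RPE level, with INK-ATTAC 2 at one end, while Tgfb3 rises with the pericyte and smooth muscle level and Inhbb with the endothelial level.

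The other 11 passing correlations were with vascular markers. With the pericyte and smooth muscle level these were Tgfb1 (r = 0.802), Tgfb3 (0.796), Inhba (0.732), Tgfb2 (0.720) and Inhbb (0.647). With the endothelial level they were Inhbb (0.806), Tgfb1 (0.753), Tgfb3 (0.741), Smad7 (0.725), Inhba (0.668) and Tgfb2 (0.664). Their permutation p, adjusted over all genes, ran from 0.00549 to 0.0460. Spearman's rho ran from 0.525 (Tgfb2 with endothelial, p = 0.0460) to 0.850. Adjusted over the 120 correlations, the permutation p of rho was 0.0168 to 0.0493 for Tgfb3 and Inhbb with both levels. For Tgfb1, Tgfb2 and Inhba with both levels it was 0.0662 to 0.178, above the threshold. Without INK-ATTAC 2, the correlations of Tgfb2 and Inhba with both levels, and that of Inhbb with the pericyte level, no longer passed. The correlation of Smad6 with the pericyte level then did (r = 0.730, adjusted p = 0.0237). These marker levels were shared by much of the transcriptome, as 20.5% and 16.7% of all genes passed against them, and they correlated with each other at r = 0.887. The RPE level ran opposite to both, at r = -0.771 with the endothelial and -0.699 with the pericyte level. Relations with the RPE level and with the vascular levels are therefore not separate results.

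Tgfb3 showed the relation with mural (pericyte and smooth muscle) markers, and likewise with endothelial markers, in each division of the libraries. Against the pericyte and smooth muscle level its rho was 0.786 (p = 0.00085; permutation p of r = 0.00032, adjusted p = 0.00549), and r was 0.942 in controls, 0.649 in INK-ATTAC libraries, 0.925 in low and 0.830 in high Xist. It was 0.778 without INK-ATTAC 2 and 0.696 without the 2 libraries farthest from the median. Against the endothelial level Tgfb3 gave a rho of 0.800 and r of 0.742 to 0.873 within groups and classes, so the relation was not particular to mural markers. Inhbb against the endothelial level gave rho = 0.850 (p = 0.00014; permutation p of r = 0.00027, adjusted p = 0.00584), 0.741 without INK-ATTAC 2, and 0.686 to 0.942 within groups and classes. Tgfb1 against the pericyte level gave 0.748 without INK-ATTAC 2 and 0.545 without the 2 farthest libraries.

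Bmp4 and Bmp2 passed with none of the 12 levels. Bmp4 gave r = 0.387 with RPE, -0.01 with endothelial and 0.00 with pericyte markers, and its highest absolute r was -0.513, with Muller glia. Bmp2 gave 0.556 with RPE (adjusted p = 0.203). No gene of the 10 passed with the macrophage level, the cells in which LysM-Cre is active, where 0% of all genes passed, and Tgfb1 gave r = 0.348 there. Inhba gave 0.782 with the fibroblast level (adjusted p = 0.172), where 0% of all genes passed too.

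**Figure D5:**
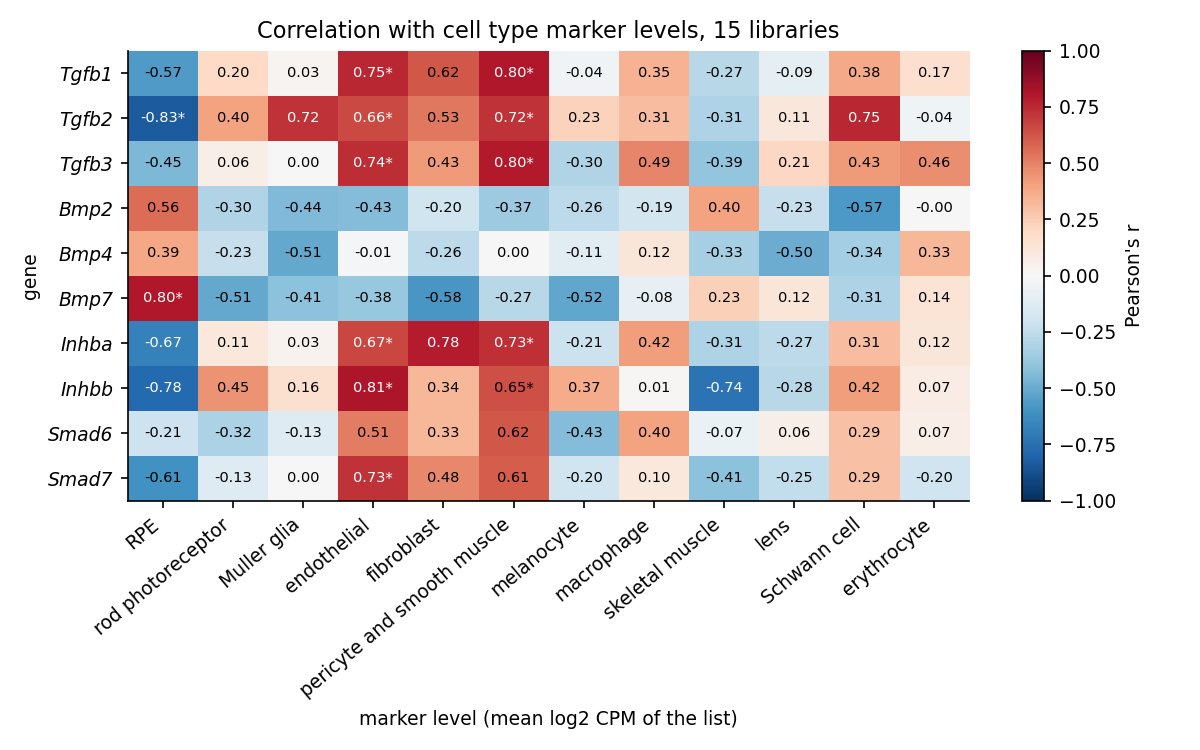
Pearson's r over 15 libraries between each of the 10 genes (rows) and each of 12 marker levels (columns), in colour from -1 to 1, with a star where the permutation p adjusted over all genes is under 0.05. The 13 stars fall in the RPE, endothelial, and pericyte and smooth muscle columns.

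The 10 genes were also compared with each other, in 45 pairs, where a pair had to pass against all genes in both directions. The pairs that passed joined Smad6 to Smad7 and to Tgfb3. Smad6 and Smad7 correlated at r = 0.720 (permutation p = 0.0026, adjusted p = 0.0374 and 0.0460; rho = 0.714, p = 0.00365), and r was 0.619 to 0.904 within groups and Xist classes and 0.727 without INK-ATTAC 2. Against Smad6, Smad7 and Tgfb3, 9.64%, 6.41% and 16.5% of all genes passed, against Tgfb1 10.5%, against Inhbb 3.27%, and against Inhba 1.05%. The shares were 0.283% for Tgfb2, 0.256% for Bmp7, 0.183% for Bmp2 and 0% for Bmp4. Tgfb3 and Smad6 correlated at r = 0.700 (permutation p = 0.00345, adjusted p = 0.0428 and 0.0322; rho = 0.636, p = 0.0131). That pair gave 0.872 in high Xist and 0.06 in low Xist, and 0.413 without control 5 and INK-ATTAC 5, so it rested on part of the libraries. Adjusted over the 45 pairs, the permutation p of rho was 0.0547 for Smad6 with Smad7 and 0.0945 for Tgfb3 with Smad6.

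The pair Tgfb1 and Inhba, shown with their promoters, gave r = 0.765 (permutation p = 0.00078; rho = 0.746, p = 0.00208). It passed against all genes compared with Tgfb1 (adjusted p = 0.0202) but not against those compared with Inhba (adjusted p = 0.0551), and r was 0.702 without INK-ATTAC 2. The 3 BMP ligands correlated at 0.306 (Bmp2 and Bmp4), 0.403 (Bmp2 and Bmp7) and 0.478 (Bmp4 and Bmp7), and none of these passed. Bmp7 and Tgfb2 gave r = -0.670 (adjusted p = 0.181 and 0.151).

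The mean transcript level of listed target genes was set against the 10 genes, a comparison added after the data were seen. Signalling itself was not measured. The mean level of the 16 TGF-beta targets had a log2 CPM of 4.70 ± 0.46 in the 7 controls and 4.57 ± 0.39 in the 8 INK-ATTAC libraries (SD). It correlated with Tgfb3 at r = 0.872 (permutation p = 3e-05, adjusted p = 0.00142; rho = 0.921, p = 2e-05), with Tgfb1 at 0.845 (permutation p = 8e-05, adjusted p = 0.00128; rho = 0.839) and with Smad7 at 0.758 (permutation p = 0.00104, adjusted p = 0.00931; rho = 0.825). Inhba (0.712), Smad6 (0.707), Inhbb (0.675) and Tgfb2 (0.636) passed too, which makes 7 of the 10 genes, with adjusted p of up to 0.0487. The BMP ligands did not (Bmp2 -0.240, Bmp4 0.145, Bmp7 -0.304). For Tgfb3 r was 0.828 to 0.938 within groups and Xist classes and 0.825 without the 2 farthest libraries. Without INK-ATTAC 2, r was 0.861 for Tgfb3, 0.810 for Tgfb1, 0.802 for Smad7 and 0.801 for Smad6. It was then 0.644 for Inhba, 0.585 for Inhbb and 0.536 for Tgfb2. In the low Xist class r was only 0.327 for Smad6, 0.383 for Inhba and 0.473 for Smad7. Smad6 gave 0.491 without the 2 farthest libraries. Against the TGF-beta target level 23.3% of all genes passed. The list shares Acta2 and Tagln with the pericyte and smooth muscle markers and collagen genes with the fibroblast markers, and the part of those cells in the relation was not tested. Against the 11 BMP targets no gene passed, and Bmp4 gave r = -0.359 and Tgfb2 0.698 (adjusted p = 0.326).

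Over 11978 protein-coding genes, the 2 most like each of the 10 in pattern were ranked by Pearson's r over 15 libraries centred by group, as a description. They were Sertad2 (r = 0.954) and Pi4ka (0.944) for Smad6, Lynx1 (0.934) and Avpr1a (0.933) for Tgfb3, and Nr2f2 (0.933) and Ptgfrn (0.917) for Smad7. For Tgfb1 they were Rnf169 (0.923) and Sema5a (0.918), for Tgfb2 Uchl1 (0.930) and Ndrg1 (0.921), for Bmp7 Slc7a10 (0.919) and Fam19a3 (0.916), and for Bmp2 Usp30 (0.935) and Ddah1 (0.927). Inhba was most like Resf1 (0.938) and Tpr (0.932), and Inhbb like Acer2 (0.906) and Lifr (0.905). Bmp4 had no close match, with Fam83h at 0.834 and Etnk2 at 0.824.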

How the data were processed

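The authors deposited raw counts per Ensembl gene for 15 libraries, per the file headers not normalized, in 40757 entries, from which 276 repeats were collapsed. Per the file headers, the authors' deposited comparison table gives log2 CPM, log2 fold change and p-values. Per the submitters' processing notes, bcl2fastq, DRAGEN, edgeR, limma and GRCm38 were used. The counting program and its use of strand, tool versions and annotation release were not given in these sources. Per the file headers, the authors' deposited table also holds 2 limma statistics per gene, treated as scores and not used.

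Counts were scaled by TMM and filtered by filterByExpr in edgeR 4.0.16 (R 4.3.3), and groups taken from the labels were compared with the two-sided quasi-likelihood test, Benjamini-Hochberg adjusted over 17991 genes at a threshold of 0.05. The common biological coefficient of variation was 0.26. CPM levels are on TMM library sizes, and correlations used log2 CPM with a prior count of 2 and 100000 permutations. Exon lengths are from a GENCODE annotation of GRCm38. Xist classes were divided at the largest gap in Xist. On simulated counts the test recovered 48% of 100 genes given a log2 change of 0.5 and 85% of 100 given 1, with 5 false calls. The changed genes all had CPM above 1 in at least 7 libraries, so levels as low as those of Tgfb1 and Inhbb were not covered.

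The genes and lists were chosen with earlier results of these data known. Named pathway genes were, per list, those of highest mean CPM and lowest p. The design adjusted correlations within their family of 120 or 45; after the results were seen this was replaced by adjustment over all genes. Alternatives were DESeq2 1.42.0, limma 3.58.1 voom with and without quality weights, RLE scaling, other filters, covariates, blocks and leaving out each library. The main test did not pair the libraries, and whether replicate numbers pair them was not settled.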

Additional observations from a re-analysis of the deposited data

Results flagged for a closer look

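The fibroblast marker level of control 2, 6.34 log2 CPM, lay far below those of the other 6 controls, which ran from 6.96 to 7.40. It was picked out because its gap to the nearest control was a large share of the range of the group. Of 72 such checks this was the only one met, and chance alone meets about 1 in 20. Inhba was also lowest among the controls in that library (4.65 CPM).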

How the results depend on the processing

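In each of 14 alternative settings and 15 fits that left out a library, 0 of the 10 genes and 0 of the other pathway genes were called. Over all genes DESeq2 called 6 and voom with quality weights 2. Same-numbered libraries of the groups correlated at -0.10 to 0.29 by title and -0.15 to 0.23 by description. These values were not set against differently numbered libraries, so they cannot decide whether the numbers pair the libraries. With a replicate block 0 genes were called, and 734 and 751 had an unadjusted p under 0.05, against 745 without. The block by description turned Tgfb2 to -0.077 and Gdf11 to -0.0061.

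With the skeletal muscle level as covariate, log2 fold changes turned to 0.10 for Tgfb3, -0.057 for Bmp2, 0.15 for Inhbb, -0.070 for Gdf11, -0.020 for Mstn, -0.28 for Hfe2, 0.022 for Smad5, 0.12 for Smad9, -0.075 for Sostdc1, 0.39 for Col1a2 and -0.087 for Id2. The lens level turned Smad5 to 0.032, Sostdc1 to -0.042 and Col1a2 to 0.0097. The RPE level turned Col1a2 to 0.012, the rod level Gdf11 to -0.030, the Xist class Sostdc1 to -0.00049, and quality weights Smad7 to -0.0052. Leaving out 1 library gave ranges that cross 0, from -0.091 to 0.25 for Tgfb1, -0.025 to 0.23 for Tgfb2, -0.0052 to 0.12 for Bmp2, -0.041 to 0.18 for Inhba, -0.034 to 0.34 for Smad6, -0.078 to 0.10 for Smad7, -0.034 to 0.049 for Gdf11, -0.049 to 0.012 for Smad5, -0.042 to 0.063 for Sostdc1 and -0.32 to 0.21 for Col1a2. Bmp4 and Bmp7 kept their direction in all of these. The cause of these turns was not tested.

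Of 120 correlations with marker levels 13 passed, 7 without INK-ATTAC 2, 14 with groups centred (Inhbb with RPE gained) and 12 with pathway targets left out of the marker lists. The pair lost there, Bmp7 with RPE, has no such target in its list, and its adjusted p went from 0.0477 to 0.0503 by the random draw of permutations. Of 45 pairs of the genes 2 passed, 4 with groups centred, 4 without INK-ATTAC 2, and 5 when adjusted over the 45 alone, as first designed (the 120 then gave 17). Depth limited Tgfb1 and Inhbb, which a filter of CPM above 1 in 7 libraries removed. Covariates for RPE and pericyte level, centring, reduced marker lists and leaving out INK-ATTAC 2 from the correlations were chosen after the data were seen.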
